A study of Mus musculus with 8 samples.

Results

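The genes described are 9 chromatin remodeler genes outside the ISWI, SWI/SNF and NuRD groups, namely Chd1, Chd2, Chd7, Chd8, Ino80, Srcap, Ep400, Hells and Atrx. They were chosen by name, as the Ensembl IDs that carry these symbols in the mm10 annotation, and all 9 were present in both tables, among 19485 genes listed for morulae and 20348 for blastocysts. All 9 also passed the filter on low values, a mean of at least 10 over the 4 libraries of a table, which left 13404 genes tested in morulae and 13651 in blastocysts. The libraries were made from polyadenylated RNA of whole mouse embryos in 4 groups: morulae with knockdown of Snf2h, which is Smarca5 (KD), morulae of the NC group, blastocysts with the same knockdown and blastocysts of the NC group. Each group had 2 libraries and each library pooled 20 embryos. Embryonic days 3.75 and 4.25 were named for the collections without a day for each stage. Strain, the way the knockdown was done, what NC stands for and any treatment shared by the groups are not given in the sources used here. All values are normalized abundances, scaled by the authors within each table, so levels were compared between KD and NC inside a stage only. Whether the 2 libraries of a group are separate litters or collections is not stated, so each p-value reflects only how far these libraries lie apart, and that spread may be technical.

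Chromatin remodelers use ATP to slide, evict, space or exchange nucleosomes, and each class carries an ATPase motor of the SNF2 superfamily. SMARCA5 is a motor of the ISWI class. The CHD proteins add chromodomains that recognise histone tails. INO80, SRCAP and EP400 are the split-ATPase motors of large complexes that move nucleosomes and exchange the histone variant H2A.Z, and ATRX and HELLS act on heterochromatin and repeats. In preimplantation embryos chromatin is reset from the gamete state, and remodelers of several classes are present while the first lineages form.

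Smarca5 fell in KD embryos, which checks the labels. Its normalized abundance was 501 and 470 in KD morulae against 9678 and 9760 in NC morulae (log2 fold change -4.32, limma adjusted p = 1.88e-04), and 906 and 855 in KD blastocysts against 7000 and 8283 in NC blastocysts (log2 fold change -3.11, adjusted p = 5.93e-04). Estimated depth was 16177238 to 18568761 reads in a morula library and 13958294 to 23304921 in a blastocyst library. All 12 early lineage markers, among them Pou5f1, Cdx2, Krt8 and Gata6, were listed in both stages. Their summed abundance was 72190 and 64050 in KD against 71230 and 67100 in NC morulae, and 134100 and 152000 in KD against 125900 and 129900 in NC blastocysts. The sum hides single markers: 4 of 12 in morulae and 6 of 12 in blastocysts had an unadjusted p under 0.05, beside 10.4% and 17.6% of all genes, and none was called in limma. The endoderm factor Gata4 was 181 and 351 in KD against 51.5 and 172 in NC morulae, and 457 and 822 in KD against 190 and 380 in NC blastocysts. Gata6, from the same list, overlapped between groups at both stages (log2 fold change 0.13 in morulae and -0.15 in blastocysts). Pdgfra was 1179 and 809 in KD against 357 and 547 in NC morulae, and overlapped in blastocysts (log2 fold change 0.12). Sox17 was 186 and 72.7 in KD against 16.1 and 0 in NC morulae, and overlapped in blastocysts (log2 fold change 0.42). The NC morula mean of Sox17, 8.03, was under the filter of 10, which this gene passed only through the KD libraries. Sox17 is among the 4 morula markers counted above, so that count rests partly on the group in which it was high. Krt8 had a log2 fold change of -0.36 in morulae and 0.25 in blastocysts, and Krt18 of -0.43 and 0.29. The 4 morula markers were Krt8, Krt18, Pdgfra and Sox17. The 6 blastocyst markers were Gata4, Krt8, Krt18, Gata3 (log2 fold change 0.33), Cdx2 (0.20) and Sox2 (-0.49), of which only Sox2 was lower in KD. Eomes overlapped between groups at both stages. Of 13 cumulus, granulosa and stromal markers 6 were listed in morulae and 7 in blastocysts. Their summed abundance was 298 and 315 in KD against 116 and 218 in NC morulae, and 185 and 418 in KD against 205 and 328 in NC blastocysts. Within that list the granulosa factor Foxl2 was 109 and 77.1 in KD against 38.9 and 28.9 in NC morulae, and 63.9 and 42.6 in KD against 16.3 and 25.1 in NC blastocysts. Of the 4 genes of this list that were tested, 4 had a log2 fold change above 0 in morulae. In blastocysts only Foxl2 did, and 3 were below 0 (Col1a1 -0.76, Inhbb -0.06 and Star -0.04). The blood list (6 and 7 of 8 listed) summed to 34.5 and 51.1 in KD against 60.1 and 67.9 in NC morulae, and to 33.6 and 110 in KD against 62.4 and 199 in NC blastocysts. The oviduct and uterine list (5 of 7 listed) summed to 127 and 115 in KD against 99.2 and 77.4 in NC morulae, and to 702 and 843 in KD against 706 and 725 in NC blastocysts. Most of the blastocyst sum was the single gene Wfdc2, at 650 and 753 in KD against 653 and 699 in NC. In morulae Muc1, from the same list, was 34.5 and 21.6 in KD against 4.24 and 5.52 in NC. The NC morula mean of Muc1, 4.88, was under the filter of 10, which this gene passed only through the KD libraries. Wfdc2 had a log2 fold change of 0.27 in morulae, and Ovgp1 went the other way (-0.45, with overlap). The granulosa genes Fshr and Cyp19a1 and the cumulus genes Ptx3, Has2 and Tnfaip6 are not among the listed genes. The part of other cells in the values below was not tested. In pooled whole embryos, fewer cells of a type and less RNA per cell cannot be told apart.

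None of the 9 remodeler genes passed the test at either stage, and most differed little between KD and NC embryos. In morulae 0 of 9 were called (lowest limma adjusted p = 0.570), where 0.00746% of all tested genes were called, and 0 of 9 had an unadjusted p under 0.05, against 10.4% of all tested genes. In blastocysts 0 of 9 were called (lowest limma adjusted p = 0.165), where 0.0879% of all tested genes were called, and 2 of 9 had an unadjusted p under 0.05, which is 22.2% against 17.6% of all tested genes. These were Atrx, lower in KD blastocysts, and Chd2, higher in KD blastocysts. Changes in mean abundance ran from -18.1% to 3.97% in KD morulae and from -26.8% to 57.3% in KD blastocysts, relative to NC. The median log2 fold change over the 9 genes was -0.03 in morulae and -0.03 in blastocysts, beside -0.01 and 0.00 over all genes tested. The 95% interval of the log2 fold change lay within 1 unit of 0 for 9 of 9 genes in morulae and 8 of 9 in blastocysts, all but Chd2.

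In morulae 3 of 9 genes, Chd1, Chd7 and Atrx, had each KD library below each NC library, and 0 had each KD library above. Over all tested morula genes these shares were 21.2% and 20.7%. In blastocysts 2 genes, Ino80 and Atrx, had each KD library below each NC library, and 3, Chd2, Srcap and Hells, had each above, where the shares of all tested genes were 24.9% and 24.6%. With 9 genes, counts of 2 or 3 are near these shares. Atrx was the only one of the 9 whose KD libraries lay below the NC libraries in both stages, as for 9.54% of the 12875 genes tested in both, and none of the 9 lay above in both, against 9.41%. The test of single genes had 2 libraries a group, for which an exact permutation test could not reach 0.05.

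**Figure D1:**
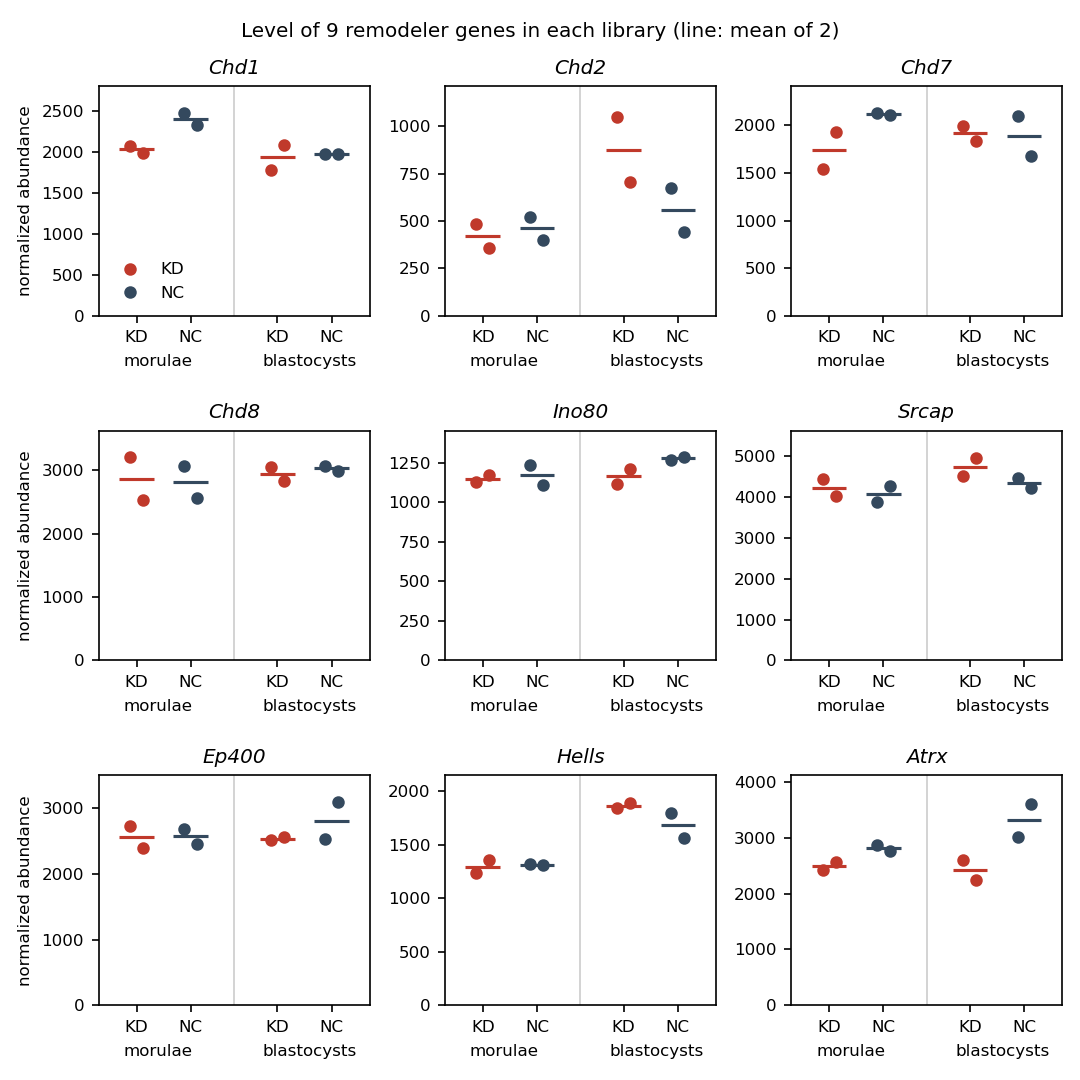
Normalized abundance of each of the 9 remodeler genes in each library (points) with the mean of each group of 2 (line), KD left of NC, for morulae and blastocysts; the tables of the 2 stages were scaled separately. KD and NC points of Atrx stand apart in both stages, at 2251 to 2608 in KD blastocysts and 3027 to 3615 in NC blastocysts, and the points of Chd2 are the most spread relative to their level.

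Divided by the length of the longest coding transcript, the group means of the 9 genes spanned less than one order of magnitude within a stage. Srcap was the highest at 396 ± 26.6 per kilobase in KD morulae and 381 ± 26.0 in NC morulae, followed by Chd8 at 337 ± 55.5 and 331 ± 41.7 (SD, n = 2 each). These neighbours did not differ beyond their spread in KD morulae, where Srcap was 415 and 377 per kilobase and Chd8 was 377 and 298. Below them, on the same scale, came Chd1, Atrx, Ep400, Hells, Ino80 and Chd7 at 170 to 257 in KD morulae and 184 to 303 in NC morulae. Chd2 was the lowest by a wide margin, at 46.3 ± 9.96 in KD and 50.7 ± 9.25 in NC morulae. In blastocysts Srcap again led at 444 ± 30.1 per kilobase in KD and 407 ± 16.3 in NC, and Chd2 was last at 96.4 ± 26.6 in KD and 61.3 ± 18.2 in NC (SD, n = 2 each). Levels per kilobase depend on which transcript is used, and the transcripts present were not measured here.

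Ranked with the 9 genes by level per kilobase, Smarca5 was ninth in KD and first in NC embryos at both stages. Per kilobase Smarca5 was 79.4 ± 3.50 in KD and 1590 ± 9.58 in NC morulae, and 144 ± 5.89 in KD and 1250 ± 148 in NC blastocysts (SD, n = 2 each), so in KD embryos only Chd2 was lower. Within each library, 6 of the 9 genes stood at or above the 80th percentile of tested genes in all 4 morula libraries, and 6 in all 4 blastocyst libraries before length was considered. Percentiles of the 9 genes reached 94.6 in morulae and 94.7 in blastocysts, with Chd2 at the low end and Srcap at the high end of both.

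**Figure D2:**
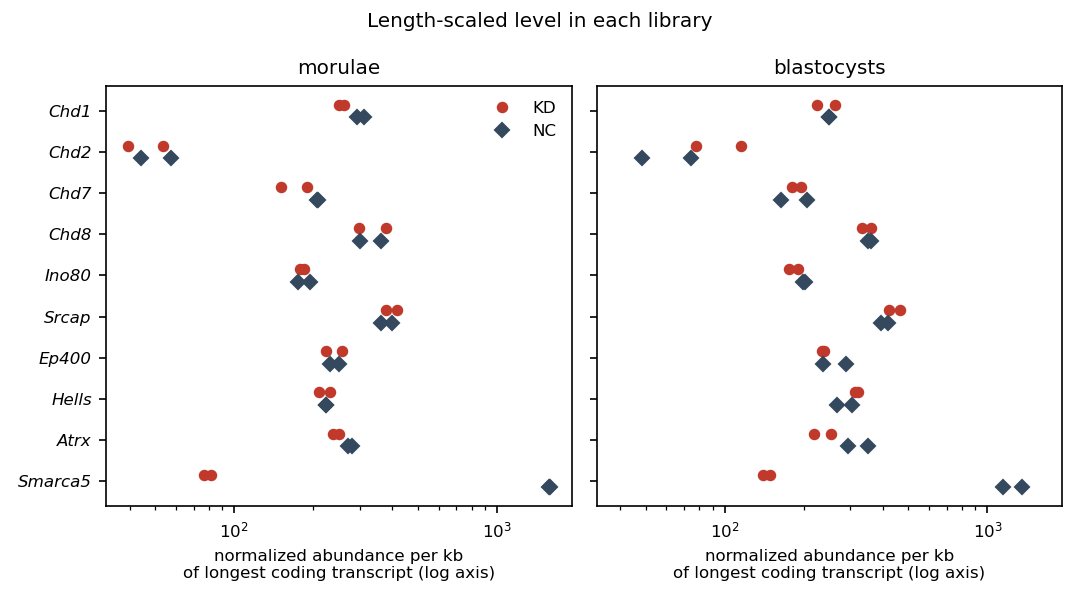
Normalized abundance per kilobase of the longest coding transcript (log axis) in each library, KD above NC for each gene, for the 9 remodeler genes and Smarca5. Smarca5 lies at 76.9 and 81.9 in KD morulae and at 1583 and 1597 in NC morulae, while the 9 genes hold similar positions in both groups.

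Among the CHD genes, Chd1 encodes a remodeler that binds histone H3 trimethylated at lysine 4 and is known for keeping chromatin open in mouse embryonic stem cells. Chd1 (ENSMUSG00000023852; mm10 chromosome 17, 15704967 to 15772610, plus strand) had 2076 and 1989 in KD morulae against 2468 and 2323 in NC morulae. Both KD libraries were lower, with means of 2032 ± 61.1 and 2396 ± 103 (SD, n = 2 each; log2 fold change -0.24, 95% interval -0.54 to 0.07, limma adjusted p = 0.574). In blastocysts the groups overlapped, at 1782 and 2085 in KD against 1976 and 1972 in NC (log2 fold change -0.03, interval -0.31 to 0.24).

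Chd2, the closest relative of Chd1, encodes a remodeler linked to deposition of the histone variant H3.3. Chd2 (ENSMUSG00000078671; chromosome 7, 73426638 to 73541830, minus strand) had 485 and 357 in KD morulae against 520 and 401 in NC morulae, with overlap. In blastocysts it had 1047 and 705 in KD against 674 and 440 in NC, so the lower KD library was only slightly above the higher NC library. Its mean was 1.57 times higher in KD blastocysts, at 876 ± 242 against 557 ± 165 (SD, n = 2 each; log2 fold change 0.66, interval 0.03 to 1.29, limma adjusted p = 0.271), the largest difference of the 9 genes at either stage. The replicates of Chd2 differed by 0.57 in KD and 0.61 in NC blastocysts on the log2 scale, beside medians of 0.21 and 0.22 over all tested genes. Without KD replicate 1 or without NC replicate 2 the log2 fold change was 0.37 or 0.35, and without NC replicate 1 it was 0.96. The annotated transcript 1810026B05Rik shares 2628 exonic bases with Chd2 on the same strand and is not among the listed genes, so the value of Chd2 is uncertain.

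Chd7 and Chd8 encode related remodelers, CHD7 at enhancers and mutated in the human CHARGE syndrome, and CHD8 a partner of beta-catenin and CTCF. Chd7 (ENSMUSG00000041235; chromosome 4, 8690406 to 8867659, plus strand) had 1538 and 1932 in KD morulae against 2124 and 2112 in NC morulae. Both KD libraries were lower, by unequal amounts (log2 fold change -0.30, interval -0.67 to 0.08, limma adjusted p = 0.570), and without KD replicate 1 the log2 fold change was -0.13, without KD replicate 2 it was -0.46. In blastocysts Chd7 had 1994 and 1837 in KD against 2102 and 1678 in NC, with the KD values inside the NC range. Chd8 (ENSMUSG00000053754; chromosome 14, 52198151 to 52257780, minus strand) overlapped between groups at both stages, at 3205 and 2537 in KD against 3067 and 2566 in NC morulae, and at 3054 and 2831 in KD against 3067 and 2998 in NC blastocysts. Its log2 fold change was 0.02 (interval -0.38 to 0.42) in morulae and -0.04 (interval -0.27 to 0.18) in blastocysts. The antisense gene Gm26590 shares 953 exonic bases with Chd8, and no label says whether strand was used in counting.

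Ino80 encodes the motor of the INO80 complex, which slides nucleosomes and acts on H2A.Z-containing ones. Ino80 (ENSMUSG00000034154; chromosome 2, 119373042 to 119477687, minus strand) had 1126 and 1170 in KD morulae, inside the NC range of 1234 and 1110. In blastocysts it had 1117 and 1213 in KD against 1268 and 1288 in NC, both KD libraries being lower by a small amount (log2 fold change -0.13, interval -0.41 to 0.14, limma adjusted p = 0.588). Without KD replicate 1 the log2 fold change was -0.08.

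Srcap and Ep400 encode the motors of the complexes that place H2A.Z in nucleosomes, and the EP400 complex also holds the histone acetyltransferase KAT5. Srcap (ENSMUSG00000053877; chromosome 7, 127511983 to 127561219, plus strand) had 4419 and 4018 in KD against 3862 and 4253 in NC morulae, with overlap. In blastocysts it had 4500 and 4953 in KD against 4456 and 4210 in NC, with the lower KD library close to the higher NC one (log2 fold change 0.12, interval -0.10 to 0.35, limma adjusted p = 0.535). Without KD replicate 2 the log2 fold change was 0.06, and without KD replicate 1 it was 0.19. Srcap is uncertain because the annotated gene Gm42715 shares 9738 exonic bases with it on the same strand. Gm42715 held 11.9% and 7.12% of the pair's abundance in KD morulae and 8.61% and 5.63% in NC morulae, and 8.08% and 7.79% in KD and 6.01% and 9.84% in NC blastocysts. The sum of the pair was 4895 and 5371 in KD and 4741 and 4670 in NC blastocysts, with the groups again apart.

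Ep400 (ENSMUSG00000029505; chromosome 5, 110664373 to 110770717, minus strand) overlapped between groups at both stages. It had 2737 and 2391 in KD against 2681 and 2463 in NC morulae (log2 fold change -0.01, interval -0.33 to 0.32), and 2511 and 2557 in KD against 2529 and 3092 in NC blastocysts (log2 fold change -0.14, interval -0.43 to 0.15). Without NC replicate 2, the higher library, the blastocyst value was 0.00.

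Hells encodes LSH, a remodeler needed for DNA methylation of repeats in mouse. Hells (ENSMUSG00000025001; chromosome 19, 38930915 to 38971051, plus strand) had 1234 and 1354 in KD against 1317 and 1309 in NC morulae, the KD libraries lying on either side of the NC ones. In blastocysts it had 1844 and 1884 in KD against 1797 and 1565 in NC, both KD libraries being higher (1864 ± 28.3 and 1681 ± 164, SD, n = 2 each; log2 fold change 0.15, interval -0.12 to 0.43, limma adjusted p = 0.530). Without NC replicate 2 the log2 fold change was 0.05, and without NC replicate 1 it was 0.25.

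Atrx encodes an X-linked remodeler that, with its partner DAXX, deposits histone H3.3 at telomeres and pericentric heterochromatin. Atrx (ENSMUSG00000031229; chromosome X, 105797615 to 105929403, minus strand) had 2435 and 2578 in KD morulae against 2871 and 2773 in NC morulae, and 2608 and 2251 in KD blastocysts against 3027 and 3615 in NC blastocysts. Both KD libraries were lower at both stages. The log2 fold change was -0.17 in morulae (interval -0.46 to 0.12, limma adjusted p = 0.680) and -0.45 in blastocysts (interval -0.75 to -0.14, limma adjusted p = 0.165), where the means were 2430 ± 253 in KD and 3321 ± 416 in NC (SD, n = 2 each). With any 1 library left out, the blastocyst value stayed between -0.58 and -0.32. Of the 435 X-linked genes tested in blastocysts the median log2 fold change was -0.04. Each KD library lay below each NC library for 27.8% of them, near the 24.9% of all tested genes. In morulae the median over 419 X-linked genes was -0.01.

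To show how the start regions of these genes differ in sequence, the bases just upstream of Atrx, lower in KD at both stages, and of Hells, higher in KD blastocysts, are printed 5′ to 3′ on the gene's strand from RefSeq on GRCm38.p6, which is mm10, with CG dinucleotides in capitals. They stop where the annotated gene begins.
Atrx (chrX:105929404-105929622, minus strand): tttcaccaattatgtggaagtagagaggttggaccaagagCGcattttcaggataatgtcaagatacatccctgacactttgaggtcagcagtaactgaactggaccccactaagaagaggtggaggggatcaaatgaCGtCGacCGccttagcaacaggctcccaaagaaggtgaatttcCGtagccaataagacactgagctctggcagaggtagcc
Hells (chr19:38930740-38930914, plus strand): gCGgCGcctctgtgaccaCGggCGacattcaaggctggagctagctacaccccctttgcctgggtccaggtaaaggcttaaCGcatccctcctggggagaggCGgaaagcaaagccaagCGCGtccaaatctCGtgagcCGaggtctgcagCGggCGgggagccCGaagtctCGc
The printed stretch of Atrx holds 5 CG dinucleotides in 219 bases, and that of Hells holds 14 in 175 bases. Of the 9 genes, 6 matched a promoter in the table used. In the 250 bases before the RefSeq start, Atrx had 6 CG dinucleotides, Srcap 11, Chd8 20, Ep400 25, and Ino80 and Hells 28 each, where the median of 32851 promoters was 6. The GC box GGGCGG, searched on both strands, was found in 5 of the 6, all but Atrx, and in 32.7% of all promoters. CCAAT, searched likewise, was found in 3 of the 6, Atrx (3 matches), Chd8 (1) and Ino80 (1), and in 33.8% of all promoters, and TATAAA was found in 0 of the 6 and in 12.4% of all promoters. These matches are descriptions of the letters in the window.

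**Figure D3:**
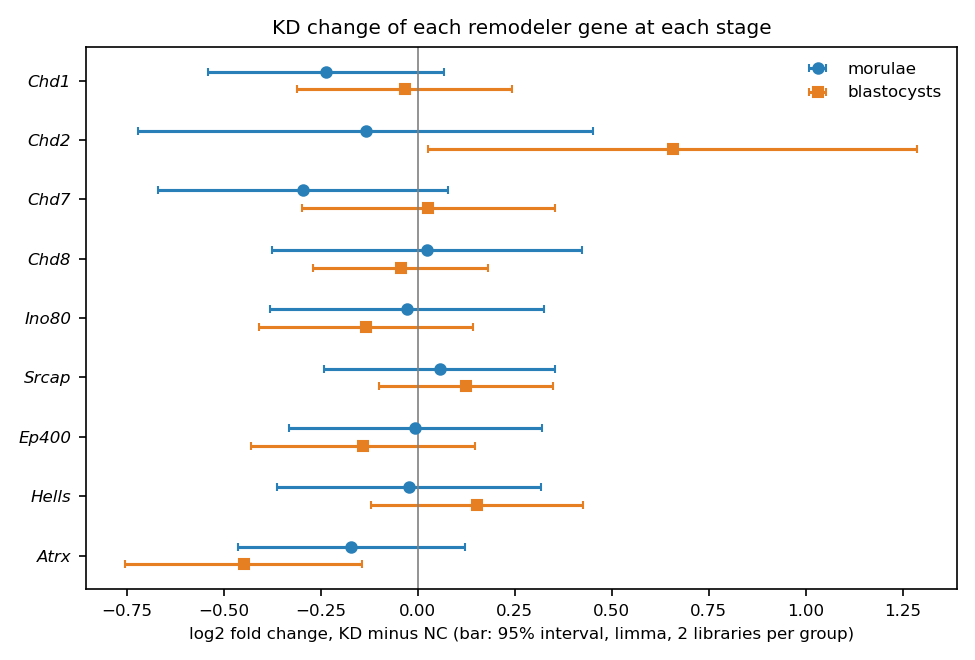
Log2 fold change, KD minus NC, of each of the 9 remodeler genes in morulae (circles) and blastocysts (squares), with 95% intervals from limma. The blastocyst intervals of Atrx (-0.75 to -0.14) and Chd2 (0.03 to 1.29) leave out 0 before adjustment, and neither gene passed after it.

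The KD changes of the 9 genes were compared between stages as the change in blastocysts minus that in morulae. None of the 9 was called in limma (adjusted p from 0.921 to 0.972), where 0% of the 12875 genes tested in both stages were called, and 0 of 9 had an unadjusted p under 0.05, against 5.34% of all genes. The largest difference was that of Chd2, with a KD change of 0.66 in blastocysts and -0.13 in morulae (difference 0.79, interval -0.12 to 1.70). For Atrx the changes were -0.45 and -0.17 (difference -0.28, interval -0.68 to 0.12), and for Chd7 they were 0.03 and -0.30 (difference 0.32, interval -0.16 to 0.81).

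The median gap between the libraries of a group over the 9 genes was 0.14 in KD and 0.12 in NC morulae on the log2 scale, beside 0.16 and 0.19 over the 6175 genes at least as abundant as the lowest of the 9. In blastocysts it was 0.12 in KD and 0.20 in NC, beside 0.12 and 0.13 over 5318 such genes, so in NC blastocysts the 9 genes were more spread. Chd2 had the widest gap of the 9 in every group on this scale, with 0.44 in KD and 0.37 in NC morulae. Patterns over the 8 libraries, as log2 values centred on each table, were most alike for Srcap and Hells (root mean square distance 0.09) and for Chd1 and Ino80 (0.09), and least alike for Chd2 and Atrx (0.48). Among 9176 other genes with a mean of at least 100 in both tables, those nearest to Atrx were Mycbp (0.03) and Prkcd (0.05), those nearest to Chd1 were Cap1 (0.03) and Pkn2 (0.03), and those nearest to Chd2 were Stard9 (0.12) and Lonrf1 (0.12). Median distances over all these genes were 0.26 for Atrx, 0.20 for Chd1 and 0.39 for Chd2. These distances are descriptions over 8 libraries that share 2 tables.

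Partner and related genes were taken from 9 lists of 60 genes in all, and all 60 were tested at both stages. None was called in limma at either stage, while 6 of 60 in morulae and 11 of 60 in blastocysts had an unadjusted p under 0.05, the second being 18.3%, beside 10.4% and 17.6% of all tested genes. At each stage 13 of the 60 had each KD library above each NC library and 12 had each below, or 21.7% and 20.0%. The median log2 fold change of the 60 was 0.02 in morulae and 0.01 in blastocysts. These shares are near those of all genes.

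Of the 6 other genes grouped by a Chd symbol, Chd5 had 266 and 269 in KD morulae against 151 and 85.7 in NC morulae (log2 fold change 1.23, interval 0.42 to 2.04, limma adjusted p = 0.377). Chd9 had a log2 fold change of 0.22 in morulae, with overlapping groups. In blastocysts Chd1l, a remodeler recruited by poly-ADP-ribose, had 154 and 201 in KD against 270 and 326 in NC (log2 fold change -0.75, adjusted p = 0.190), and Chd6 had 467 and 513 in KD against 806 and 626 in NC (log2 fold change -0.54, adjusted p = 0.197). Chd3, which encodes another motor of NuRD complexes, had 508 and 720 in KD against 412 and 367 in NC blastocysts (log2 fold change 0.64, adjusted p = 0.199). The KD libraries of Chd1l and Chd6 were lower and those of Chd3 higher, without overlap. Chd4, the motor of NuRD, had log2 fold changes of -0.04 in morulae and -0.10 in blastocysts.

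Among 11 subunits of the INO80 complex, both KD libraries lay above NC for 1 and below for 3 in morulae, and above for 2 and below for 1 in blastocysts. The shares of all genes were 20.7% above and 21.2% below in morulae and 24.6% above and 24.9% below in blastocysts. Ino80d had 1874 and 1726 in KD morulae against 2372 and 2452 in NC morulae (log2 fold change -0.42, limma adjusted p = 0.402), and Ino80c had a log2 fold change of -0.26. In blastocysts Mcrs1 had 1688 and 1593 in KD against 1975 and 2018 in NC (log2 fold change -0.28, adjusted p = 0.230), and Yy1, a DNA-binding factor that joins the complex, had 3934 and 3920 in KD against 3448 and 3303 in NC (log2 fold change 0.22, adjusted p = 0.269).

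A further list held 6 subunits, each shared by at least 2 of the INO80, SRCAP and EP400 complexes. All 6 had a log2 fold change above 0 in morulae (median 0.15) and 2 of 6 in blastocysts (median -0.13). Over all genes tested, 6601 of 13404 were above 0 in morulae and 6862 of 13651 in blastocysts. Each KD library lay above each NC library for 3 of 6 in morulae, beside 20.7% of all genes. In blastocysts 1 lay above and 2 below, beside 24.6% and 24.9%. None had an unadjusted p under 0.05 in limma at either stage. The helicase-like Ruvbl1 had 2332 and 2545 in KD morulae against 2081 and 2076 in NC morulae, and Dmap1 had 1244 and 1166 in KD against 1024 and 960 in NC (limma adjusted p = 0.591 and 0.570). In blastocysts the actin-related Actl6a had 1400 and 1316 in KD against 1527 and 1767 in NC (log2 fold change -0.27, adjusted p = 0.307), and Vps72, an H2A.Z chaperone, had a log2 fold change of -0.19 with overlap. Of the 2 SRCAP subunits, Znhit1 had log2 fold changes of 0.16 in morulae and 0.36 in blastocysts, and Actr6 -0.02 at both stages.

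The 11 further subunits of the EP400 complex had a median log2 fold change of -0.06 in morulae and 0.18 in blastocysts. In blastocysts 10 of 11 were above 0, beside 6862 of the 13651 genes tested. There 3 of 11 had each KD library above each NC library, or 27.3% beside 24.6% of all genes. In limma 1 of 11 had an unadjusted p under 0.05 in blastocysts, or 9.09% beside 17.6% of all genes. Trrap, the large scaffold that binds transcription factors, had 3672 and 4173 in KD morulae against 2772 and 2873 in NC morulae (log2 fold change 0.47, interval 0.17 to 0.78, limma adjusted p = 0.377), and Kat5 had 588 and 679 in KD against 508 and 460 in NC (log2 fold change 0.38). In blastocysts Trrap had a log2 fold change of 0.01. There Epc1 had 586 and 560 in KD against 446 and 381 in NC (log2 fold change 0.47, adjusted p = 0.216) and Brd8, the bromodomain subunit, had a log2 fold change of 0.18.

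The histone variants handled by these motors were H2afz and H2afv, which encode H2A.Z, and H3f3a and H3f3b, which encode H3.3. H2afv had 1328 and 1666 in KD against 1037 and 1264 in NC morulae, and 1456 and 1500 in KD against 1078 and 1120 in NC blastocysts (log2 fold change 0.38 and 0.43, limma adjusted p = 0.545 and 0.143). H3f3b had 13610 and 10940 in KD against 9168 and 8744 in NC morulae, and 12940 and 13030 in KD against 10480 and 11360 in NC blastocysts (log2 fold change 0.45 and 0.25, adjusted p = 0.402 and 0.190). Both KD libraries were above both NC libraries for these 2 genes at both stages, as for 9.41% of the 12875 genes tested in both. H2afz had log2 fold changes of 0.03 and -0.04 and H3f3a of -0.01 and 0.06 in morulae and blastocysts. Pseudogenes related to histone genes could take part of such reads, which makes these values uncertain.

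Of the 4 partners of ATRX and HELLS, all 4 lay lower in both KD blastocyst libraries, beside 24.9% of all genes, and 1 of 4 in both KD morula libraries, beside 21.2%. One of the 4, Zbtb24, was lower by little, at 347 and 356 in KD against 358 and 365 in NC blastocysts (log2 fold change -0.04, limma adjusted p = 0.928). Daxx had 642 and 617 in KD against 748 and 900 in NC blastocysts (log2 fold change -0.38, interval -0.74 to -0.02, limma adjusted p = 0.261), and -0.04 in morulae. Cdca7, whose product HELLS needs for its remodeling activity in human and Xenopus, had log2 fold changes of -0.25 in blastocysts and 0.07 in morulae. Its relative Cdca7l was low in all libraries, at 4.10 and 5.23 in KD against 23.6 and 45.3 in NC blastocysts and at 9.17 and 6.90 in KD against 27.8 and 13.1 in NC morulae (adjusted p = 0.143 and 0.641). The KD means of Cdca7l, 4.67 in blastocysts and 8.03 in morulae, were under the filter of 10, passed only through the NC libraries. Its place among the lower genes at both stages therefore rests on the group in which it was high. Of 4 partners of CHD7 and CHD8, Wdr5, a scaffold of histone H3 lysine 4 methyltransferases, had 5023 and 5459 in KD against 6664 and 6495 in NC morulae (log2 fold change -0.33, adjusted p = 0.426) and -0.20 in blastocysts. Rbbp5 had a log2 fold change of -0.13 in morulae and Ctcf of -0.05 in blastocysts.

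Of 12 other SNF2-like ATPases, Shprh had 515 and 427 in KD morulae against 666 and 749 in NC morulae (log2 fold change -0.59, limma adjusted p = 0.415) and Ercc6l, a mitotic helicase, had a log2 fold change of 0.36 there. In blastocysts Rad54l2 had 3620 and 3768 in KD against 4236 and 4989 in NC (log2 fold change -0.32, adjusted p = 0.210) and Zranb3, which acts at stalled replication forks, had a log2 fold change of 0.34. The group medians were 0.04 at both stages.

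**Figure D4:**
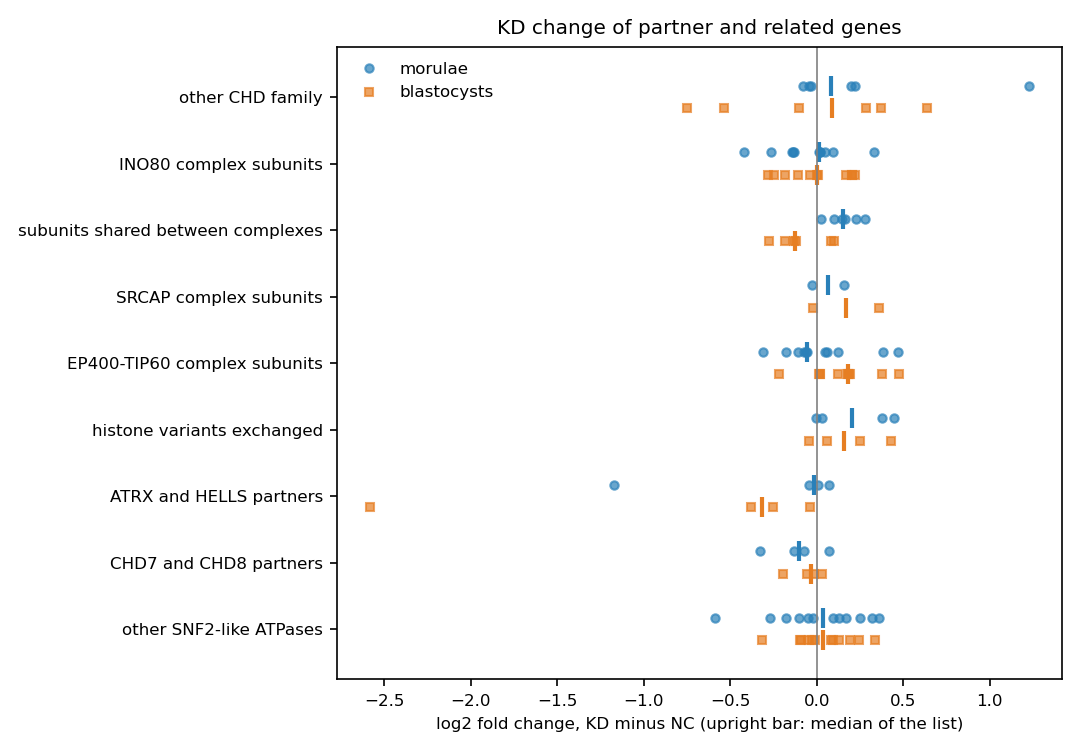
Log2 fold change, KD minus NC, of 60 partner and related genes in 9 lists (points) with the median of each list (upright bar) in morulae and blastocysts. Most points lie within 0.5 of 0, and the point at -2.58 is Cdca7l in blastocysts, a gene of low abundance. Cdca7l passed the filter on low values only through the NC libraries.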

How the data were processed

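Gene-level expression was measured in 8 libraries of polyadenylated RNA, 2 per group, each from a pool of 20 embryos; groups come from the sample titles. The authors deposited 1 table per stage, whose values are a signal scaled within the table (normalized abundance). The submitters' processing notes name Salmon 0.14.1, DESeq2 and mm10 without saying what each tool did. Depth was estimated as the column sum divided by the step between low values of genes found in 1 library (94.9% to 100% on whole steps, tolerance 0.01). Only 11.4% to 30.3% of low values of genes in several libraries were whole, so reads were not recovered, no count test was run, and errors are the spread between libraries.

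Symbols matched 98.9% of IDs. Coordinates and transcript lengths come from GENCODE M21. Genes with a mean of at least 10 were tested as log2(value + 1) in limma 3.58.1 (R 4.3.3), with a mean-variance trend and Benjamini-Hochberg adjustment over the table, threshold 0.05. Fold changes on this scale understate changes of low genes. The difference between stages used 1 fit of all 8 libraries. The script was tested on simulated data.

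The genes and lists were chosen with earlier results of these data known. The rule for naming takes the 9 genes, Smarca5, the 2 genes with the smallest p in each list and stage, and the 2 genes nearest in pattern to the 3 members with the largest absolute mean of the 2 log2 fold changes (Atrx, Chd2 and Chd1; Chd7, whose changes differed in sign, fell outside). Chd3, Chd4, Zbtb24, H2afz, H3f3a, Gm42715, the single cell type markers given by value, the X-linked medians and second-stage values of list genes were added after values were seen. Alternatives were other pseudocounts (0.5 and 10), filters (none and 100), normalizations, no trend, a threshold of 0.1, the replicate number as a block and leaving out each library.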

Additional observations from a re-analysis of the deposited data

How the results depend on the processing

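No alternative called any of the 9 genes in morulae, or any difference between stages. In blastocysts 2 were called, Chd2 (adjusted p = 0.0189) and Atrx (adjusted p = 0.0438), in the limma fit with the replicate number as a block, which called 892 morula and 1208 blastocyst genes in all, against 1 and 12 without it, and 4 partner genes in morulae (Chd5, Trrap, H3f3b and Ino80d) and 3 in blastocysts (H2afv, Rad54l2 and H3f3b). No label gives this number a shared litter, batch or day. Deviations of same-numbered libraries correlated at 0.30 in morulae and 0.15 in blastocysts across genes. Each is a single correlation without a reference value, and whether such libraries share a source was not tested. Of the 9 genes, 4 in morulae and 5 in blastocysts deviated in the same direction in KD and NC. In blastocysts Chd2 was higher in replicate 1 of both groups. Atrx was higher in replicate 1 of KD (2608 and 2251) and lower in replicate 1 of NC (3027 and 3615). Over all alternatives the adjusted p in blastocysts ran from 0.0438 to 0.445 for Atrx and from 0.0189 to 0.638 for Chd2.

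Of 27 values, the log2 fold change of 9 genes at 2 stages and the 9 differences, 14 kept their sign in every setting. The other 13 were at most 0.14 in size. Quantile normalization gave 0.0065 for Ino80, 0.0344 for Ep400 and 0.0163 for Hells in morulae, and median centring gave 0.0021 for Ep400. With 1 library left out, an arm of 1 is assumed to vary like the other. Morula values then ran from -0.36 to 0.086 for Chd2, -0.15 to 0.19 for Chd8, -0.10 to 0.0481 for Ino80, -0.0134 to 0.13 for Srcap, -0.10 to 0.0911 for Ep400 and -0.089 to 0.0441 for Hells. Blastocyst values ran from -0.15 to 0.0786 for Chd1, -0.14 to 0.19 for Chd7, -0.10 to 0.0103 for Chd8 and -0.29 to 0.0026 for Ep400. Differences between stages ran from -0.24 to 0.10 for Chd8, -0.0017 to 0.14 for Srcap and -0.28 to 0.0091 for Ep400. With 1 library against 2, 34.5% to 37.8% of all genes had all KD below all NC libraries and 34.2% to 37.7% all above. The number of the 9 genes with all KD below all NC libraries under these settings ran from 3 to 6 in morulae and 3 to 4 in blastocysts, and with all KD above from 1 to 3 and 3 to 4. The causes were not tested.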
